A study of Rattus norvegicus with 4 samples.

Results

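miR-210 is the microRNA made from the Mir210 hairpin. All names beginning with rno-miR-210- were taken from both deposited tables. This gave 2 of 836 names in the series, rno-miR-210-3p and rno-miR-210-5p, written below without the species prefix. Extracellular vesicles (EVs), the membrane particles that cells release, were profiled from rat cell lines in 4 libraries that form 3 groups. PC12, a rat pheochromocytoma line that the labels call a catecholamine cell, gave a single EVu library and a single EVd library. What u and d mean is not given, and both serve here as names only. RMT1, labelled as a breast cancer cell, gave 2 libraries, from vesicles spun out of culture medium by ultracentrifugation. No genotype, treatment, time or culture condition is given for any group, so the oxygen supply of the cells is unknown here. Whether separate cultures stand behind the RMT1 libraries, and whether both lines were prepared together, is not stated. The series title refers to sympathetic neurons, and both lines are tumour lines.

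miR-210 is best known as the microRNA that cells raise when oxygen is low. The hypoxia-inducible factor HIF-1 switches on its gene in many cell types, and the mature -3p arm is loaded into Argonaute. There it represses, among other targets, the iron-sulfur cluster assembly gene Iscu and thereby mitochondrial respiration. It has been widely measured in tumours and in vesicles shed by them.

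The sequences show which letters a count of miR-210 rests on and how closely the opposite strand mirrors it. They are RefSeq's for the rat build GRCr8, written 5′ to 3′, with the seed, bases 2 to 8, in capitals. miR-210-3p is the arm counted in all 4 libraries, miR-210-5p is the other arm of its hairpin, and miR-3574 is annotated on the opposite strand.
miR-210-3p: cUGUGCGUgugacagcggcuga
miR-210-5p: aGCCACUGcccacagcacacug
miR-3574: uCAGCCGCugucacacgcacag
miR-147: gUGUGCGGaaaugcuucugcua
Mir210 hairpin: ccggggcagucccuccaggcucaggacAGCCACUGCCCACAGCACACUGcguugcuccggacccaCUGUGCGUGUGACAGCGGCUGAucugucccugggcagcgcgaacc
In the hairpin the capitals mark both mature arms, 5p first, with 16 bases between them. The seed of miR-210-3p occurred in 0 of the other mature microRNAs among 693 in that table, so no other name in it has that seed. miR-147 is shown because it was the 1 name with the same bases 2 to 7. It was rare, with 6 and 5 counts in the RMT1 libraries and, in PC12, 25 in EVu and 19 in EVd. The miR-210-3p sequence is 63.6% G and C, against a median of 47.8% over the table, and 11.3% of mature microRNAs were at least as rich. miR-3574 is the exact reverse complement of miR-210-3p over all 22 bases. In the deposited loci, whose build is not named, miR-210-3p and miR-3574 both occupy chromosome 1 from 221125917 to 221125938, on the minus and the plus strand. miR-210-5p lies at 221125955 to 221125976 on the minus strand. In the GRCr8 annotation Mir210 lies within the long non-coding RNA gene LOC102553043, between the protein-coding genes Rassf7 and Phrf1.

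In the table of all 4 libraries RMT1 EV 1 totalled 799224 counts, RMT1 EV 2 716940, EVu 436840 and EVd 338233. In it 3 counts, about the one-sided 95% limit for a count of 0, make up 0.000375% to 0.000887% of a library. Counting error is all that these limits and the intervals below cover. Marker lists were read against the labels. The 6 epithelial names (miR-200a, miR-200b, miR-200c, miR-141, miR-429 and miR-205) summed to 11957 and 11541 CPM (counts scaled to a total of 1e6) in RMT1, whereas EVu had 137 and EVd 88.7. The 4 neuroendocrine and neural names summed to 1485 and 1576 CPM in RMT1, whereas EVu had 27053 and EVd 24264. All of the RMT1 sum was miR-7a-5p, with 1187 and 1130 counts, while miR-375-3p, miR-9a-5p and miR-124-3p had 0 counts. The neuronal miR-124-3p was also nearly absent from PC12, with 0 counts in EVu and 1 in EVd. The RMT1 libraries differed by more than sampling noise (chi-square 6.84 per degree of freedom) and were counted as 2 samples.

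miR-210-3p was present in every library, at nearly equal shares in RMT1 and EVu and at a clearly lower share in EVd. It had 1187 counts in RMT1 EV 1, 1315 in RMT1 EV 2, 734 in EVu and 171 in EVd. As shares of the library these were 0.149% (exact Clopper-Pearson 95% interval 0.140% to 0.157%), 0.183% (0.174% to 0.194%), 0.168% (0.156% to 0.181%) and 0.0506% (0.0433% to 0.0587%). RMT1 averaged 0.166% ± 0.0247 (SD, n = 2), and EVu lay between the RMT1 libraries. EVd was lower than all 3 of the others, and its interval did not overlap theirs. In order from the highest, RMT1 EV 2 exceeded EVu by a ratio of 1.09 (0.997 to 1.20), which counting error covers. EVu exceeded RMT1 EV 1 by 1.13 (1.03 to 1.24), which is less than the difference between the RMT1 libraries. RMT1 EV 1 exceeded EVd by 2.94 (2.50 to 3.47).

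**Figure D1:**
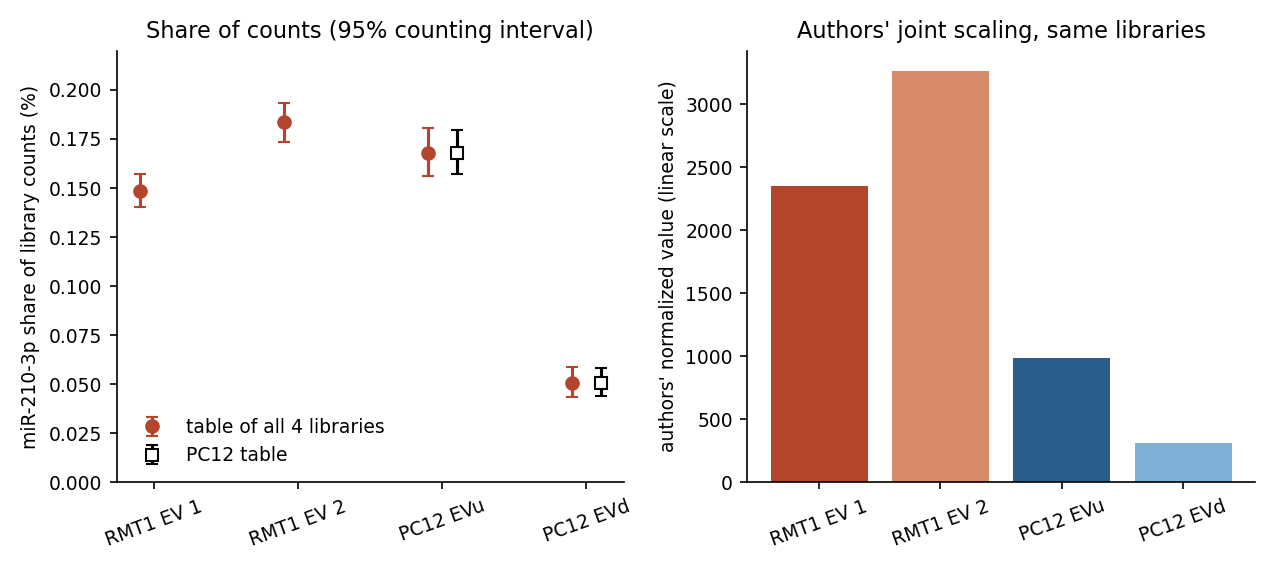
The left panel plots the share of library counts held by miR-210-3p (%), with exact 95% counting intervals, in RMT1 EV 1, RMT1 EV 2, PC12 EVu and PC12 EVd; filled circles are the table of all 4 libraries and open squares the PC12 table. The right panel plots the authors' jointly scaled value on a linear scale. EVu sits between the RMT1 libraries by share (0.168% against 0.149% and 0.183%) and below both in the authors' scaling (983 against 2353 and 3260), and EVd is lowest in each panel.

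The RMT1 libraries themselves differed in miR-210-3p. The second held 1.24 times (1.14 to 1.34) the share of the first, a log2 difference of 0.30. Of all 177 names compared, 51 (28.8%) differed more, and the median size of the log2 difference was 0.16. Of the 54 with an RMT1 mean of at least 500 counts, a limit chosen after values were seen, 3 differed more, and the median size was 0.081. The spread of miR-210-3p between RMT1 libraries is therefore wider than its counting error.

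By rank, miR-210-3p stood at 37 of 277 counted names in RMT1 EV 1, 36 of 263 in RMT1 EV 2, 64 of 388 in EVu and 100 of 364 in EVd. It is thus nearer the top of RMT1 than of EVu at a similar share. RMT1 counts are concentrated in let-7, the growth-restraining family, which held 68.9% and 68.6% of them, against 22.9% in EVu and 21.5% in EVd. With let-7 left out of the total, miR-210-3p held 0.531% ± 0.0751 (SD, n = 2) of RMT1, 0.218% of EVu and 0.0644% of EVd. RMT1 then lay 2.43 times above EVu, where the full totals gave 0.988 times. In RMT1 EV 1 its neighbours in rank were miR-185-5p (1669 counts) and miR-23a-3p (1247) above, miR-7a-5p tied at 1187, and miR-103-3p (1173) and miR-141-3p (1108) below. RMT1 EV 2 had miR-182 (1764) and miR-185-5p (1444) above and miR-23a-3p (1227) and miR-7a-5p (1130) below. In EVu miR-27a-3p (765) and miR-130a-3p (747) stood above and miR-361-3p (724) and miR-140-3p (707) below. EVd placed it beside miR-339-5p (179), miR-344a-3p (173), miR-378a-3p (169), and miR-676 and miR-30e-3p (162 each). The names beside it were alike in the RMT1 libraries and differed between EVu and EVd. Its rank also differed there, at 64 and 100, so other neighbours add nothing beyond the rank.

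**Figure D2:**
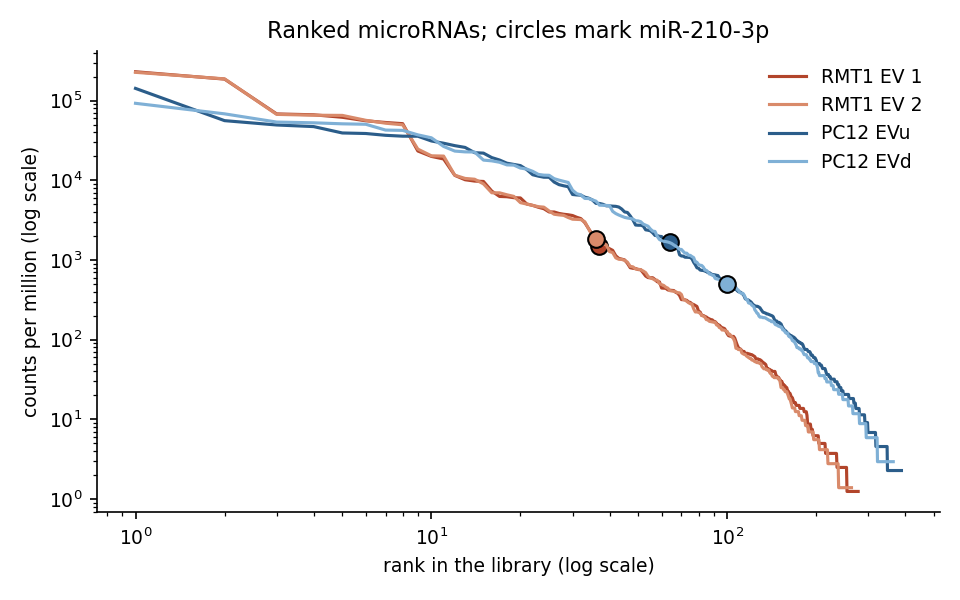
CPM of every counted microRNA against its rank, both on log scales, with 1 line per library and a circle at miR-210-3p. The RMT1 lines drop faster than the PC12 lines, and miR-210-3p stands at ranks 37 and 36 on them, at 64 in EVu and at 100 in EVd.

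EVd was set against EVu on the PC12 table, which holds raw counts totalling 512244 and 386957. miR-210-3p had 861 counts in EVu and 196 in EVd, or 1681 and 507 CPM. The log2 ratio of CPM, with a pseudocount of 1 CPM, was -1.73 (95% counting interval -1.96 to -1.51), so miR-210-3p was 3.31-fold lower in EVd. The authors' deposited table gives a log2 fold change of -1.76 for it. With 1 library per group this difference has no replicate check and no test. Averaging 10 counts or more were 472 microRNAs, of which 33 (6.99%) were lower in EVd by a fold of 2 or more, and the median of all was 0.06. miR-210-3p was the 11th lowest of the 472 and the 4th lowest of the 176 with a mean of at least 100 counts. It was the lowest of the 82 with a mean of at least 500, a limit chosen after values were seen that lies just under its own mean.

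Of the 10 names below it, 7 make up the whole blood and liver list. These were the red cell microRNAs miR-486 (-3.80), miR-451-5p (-3.31) and miR-144-3p (-2.36), the white cell microRNAs miR-142-3p (-3.57), miR-223-3p (-3.31) and miR-142-5p (-2.80), and the liver microRNA miR-122-5p (-1.88). The list was chosen with earlier results of these data known, so its place here is not an independent result. Arms of the same hairpins outside the list were mixed. miR-144-5p was at 0.03 (26 and 20 counts) and miR-451-3p at 0.08 (10 and 8), while miR-122-3p was at -1.54 (74 and 19). In the PC12 table the 7 listed names summed to 1849 CPM in EVu and 189 in EVd. In the table of all 4 libraries they summed to 1710 CPM in EVu, 121 in EVd, 63.8 in RMT1 EV 1 and 57.2 in RMT1 EV 2, and miR-451-5p was at 0 in RMT1. In the same table miR-210-3p was at 1680 CPM in EVu, 506 in EVd, 1485 in RMT1 EV 1 and 1834 in RMT1 EV 2. The part of blood and liver RNA in the lower EVd level of miR-210-3p was not tested. miR-3574, miR-3561-5p (-2.05) and miR-192-3p (-1.93) were the others below it.

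**Figure D3:**
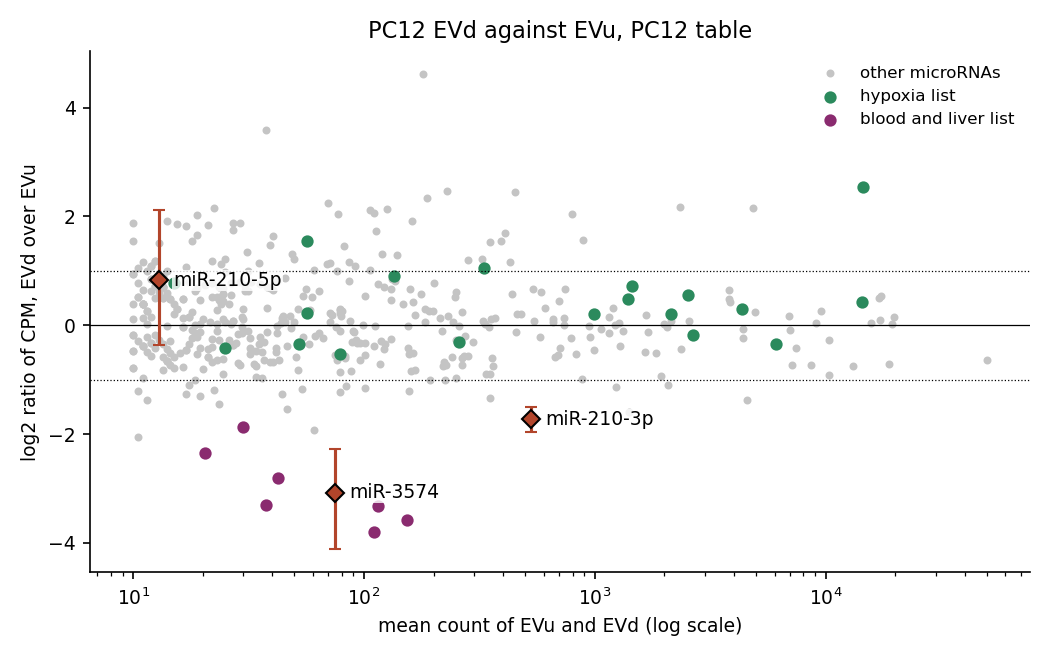
Log2 ratio of CPM of EVd over EVu against the mean count (log scale) for the 472 microRNAs with a mean of at least 10, from the PC12 table. Diamonds with 95% counting intervals mark miR-210-3p (-1.73), miR-210-5p (0.82) and miR-3574 (-3.08); green points are the hypoxia list, purple points the blood and liver list, and dotted lines a fold of 2.

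In the PC12 table the 5p arm, usually the discarded strand, did not follow the 3p arm, on few counts. miR-210-5p had 11 counts in EVu and 15 in EVd, a log2 ratio of 0.82 (-0.37 to 2.12), whose interval includes 0 and lies above that of the 3p arm. Its part of the counts of both arms was 1.26% (0.631% to 2.25%) in EVu and 7.11% (4.03% to 11.5%) in EVd. In the table of all 4 libraries the same arm had 2 counts in EVu and 0 in EVd, so these values are uncertain. RMT1 had 0 counts of it beside 1187 and 1315 of the 3p arm, or 0% of the arms with exact upper limits of 0.310% and 0.280%.

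The name on the opposite strand moved further than miR-210-3p. miR-3574 had 138 counts in EVu and 12 in EVd, a log2 ratio of -3.08 (-4.11 to -2.27). It made up 13.8% (11.7% to 16.1%) of the pair's counts in EVu and 5.77% (3.02% to 9.86%) in EVd, so the pair did not keep 1 ratio. In the table of all 4 libraries it had 0 counts in every library. The 3p arm also had fewer counts there than in the PC12 table, 85.3% as many in EVu and 87.2% in EVd. No source used here says how strand was used in counting. Counts of miR-210-3p and miR-3574 added together, 999 and 208, gave a log2 ratio of -1.86 (-2.08 to -1.64). The lower level in EVd thus holds for miR-210-3p alone in either table and for the sum.

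RMT1 was compared with PC12 by limma on the authors' log2 values, which they scaled over all 4 libraries together. On that log2 scale miR-210-3p was at 11.20 in RMT1 EV 1, 11.67 in RMT1 EV 2, 9.94 in EVu and 8.26 in EVd, and the RMT1 and PC12 values did not overlap. RMT1 exceeded the mean of EVu and EVd by 2.33 ± 0.27 (SE, 95% limma interval 0.78 to 3.89, limma adjusted p = 0.0420), or 5.04-fold. Of 278 microRNAs tested, 92 (33.1%) were called higher and 103 (37.1%) lower, or 70.1% in all, so a call is the common outcome in this comparison. Scaled by library totals, limma called 64 higher (23%) and 145 lower (52.2%), or 75.2% in all. There the difference of miR-210-3p was 0.84 ± 0.18 (SE, -0.22 to 1.90, limma adjusted p = 0.0830) and was not called.

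The scaling moved all microRNAs and left the place of miR-210-3p among them. The median difference of the 278 was -1.12 in the authors' scaling and -2.54 by library totals. miR-210-3p lay 3.45 and 3.38 above that median and was the 62nd highest each time. A change of scaling shifts all names by nearly the same amount, so this place could hardly change and is no check. In the authors' scaling it was 53rd without EVu (4.09 above the median) and 85th without EVd (2.64 above). Among the 157 names with a linear mean of at least 100 it lay 2.79 above. The edgeR quasi-likelihood test on recovered counts gave 2.35 (adjusted p = 0.000177), and with let-7 left out of the totals, an alternative added after seeing the data, limma gave 2.15 (adjusted p = 0.0274). The comparison also depends on which PC12 library stands for the line. Against EVd alone the difference was 3.17 ± 0.32 (SE, limma adjusted p = 0.0377), and against EVu alone 1.49 ± 0.32 (SE, adjusted p = 0.0812). By library totals these were 1.70 ± 0.21 (limma adjusted p = 0.0451) and -0.026 ± 0.21 (-1.18 to 1.13, adjusted p = 0.919). The residual spread comes from the RMT1 pair alone, with 1 degree of freedom, and may be technical. Cell line and preparation cannot be told apart.

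**Figure D4:**
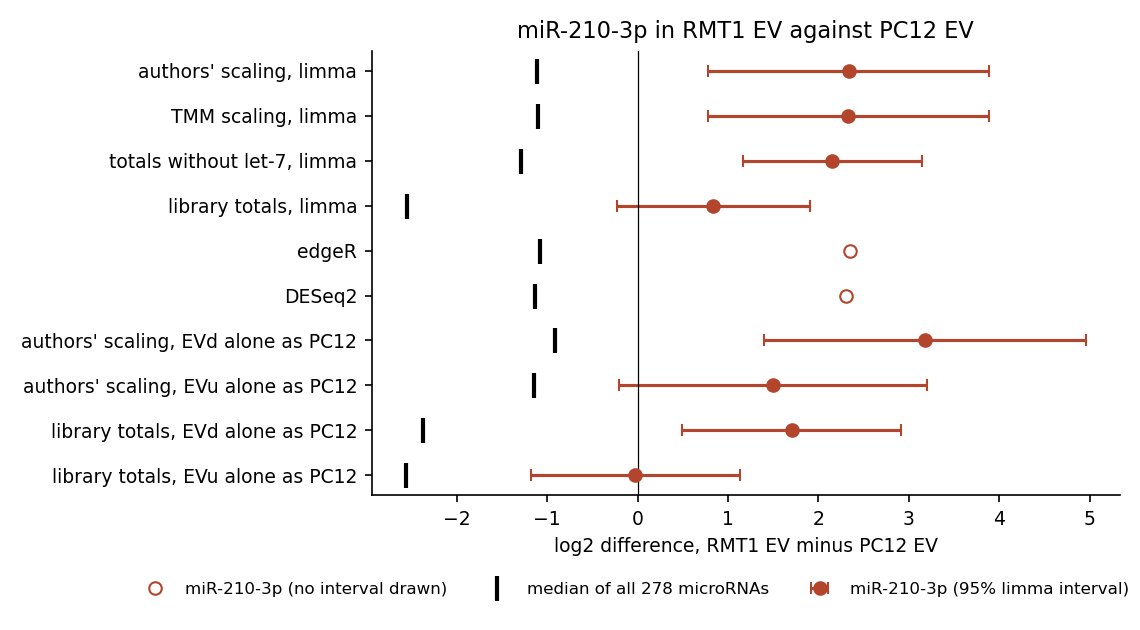
Log2 difference of miR-210-3p between RMT1 EV and PC12 EV under 10 combinations of scaling, tool and PC12 library, with 95% limma intervals; open circles have no interval and black ticks are the median of all 278 microRNAs. miR-210-3p lies right of the median in each, and its own value runs from -0.026 (library totals, EVu alone) to 3.17 (authors' scaling, EVd alone).

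Other microRNAs linked to hypoxia were read beside miR-210-3p, in a list of 23 names: 17 reported to rise in hypoxia, and 7 reported to target the HIF subunit genes Hif1a or Arnt, with miR-107-3p in both. For EVd over EVu 21 of them had a mean of at least 10 counts, with miR-103-3p and miR-107-3p counted under 1 joint name. Of the 21, 3 were at least 2-fold higher, 1 at least 2-fold lower and 17 neither, and their median was 0.31. The 3 higher names are a share near the 13.8% of all 472 that were at least 2-fold higher. The 1 lower name was miR-210-3p itself. miR-322-5p, known in human cells as miR-424, went from 5400 to 23620 counts, a log2 ratio of 2.53 (2.49 to 2.58). miR-181a-5p went from 256 to 403 counts, at 1.06 (0.83 to 1.29). miR-199a-5p, reported to target Hif1a, went from 35 to 78, at 1.55 (0.97 to 2.18), but had 6 and 3 counts in the other table. The other abundant names stayed within a fold of 2, with miR-27b-3p at 0.43 (0.40 to 0.47), miR-26b-5p at -0.34 (-0.39 to -0.29) and the joint miR-103-3p and miR-107-3p at 0.31 (0.25 to 0.37).

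For RMT1 over PC12, 20 of the 23 names were tested, of which 9 were called higher, miR-210-3p among them, 4 lower and 7 neither. Over all 278 the shares were 33.1% higher and 37.1% lower. The median of the list was 1.01 and that of all names -1.12. All names include some with 0 counts in RMT1, such as miR-375-3p at -11.38. Their median depends on the filter, at -0.46 over the 157 names with a linear mean of at least 100. A list median at that limit is not given here, so the distance between list and all names is uncertain. By library totals the same 20 gave 3 higher and 8 lower, where 23% of all names were higher and 52.2% lower. The medians were then -0.48 for the list and -2.54 for all names. miR-155-5p, which is raised in many tumours, led the higher names, with 331 and 296 RMT1 counts beside 3 in EVu and 1 in EVd. It was at 8.01 ± 0.12 (SE, limma adjusted p = 0.00572), a size that rests on those 4 PC12 counts and is uncertain, since the PC12 table has 13 and 17. The tumour-raised miR-21-5p, with 4971 and 3757 counts in RMT1 against 1015 and 898, was at 2.69 ± 0.06 (limma adjusted p = 0.00828). miR-24-3p, with 7814 and 7566 against 2238 and 2544, was at 2.20 ± 0.16 (limma adjusted p = 0.0274). These 3 were the names called higher under both scalings. miR-18a-5p (2.31), miR-181b-5p (1.82), miR-26a-5p (1.66), miR-26b-5p (0.89) and miR-20a-5p (0.88) were called higher in the authors' scaling but not by library totals, where miR-20a-5p (-0.62) was called lower. The 4 lower names were miR-27b-3p at -6.90, miR-23b-3p at -4.47, miR-322-5p at -3.40 and miR-103-3p at -1.32, and all 4 were also called lower by library totals.

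**Figure D5:**
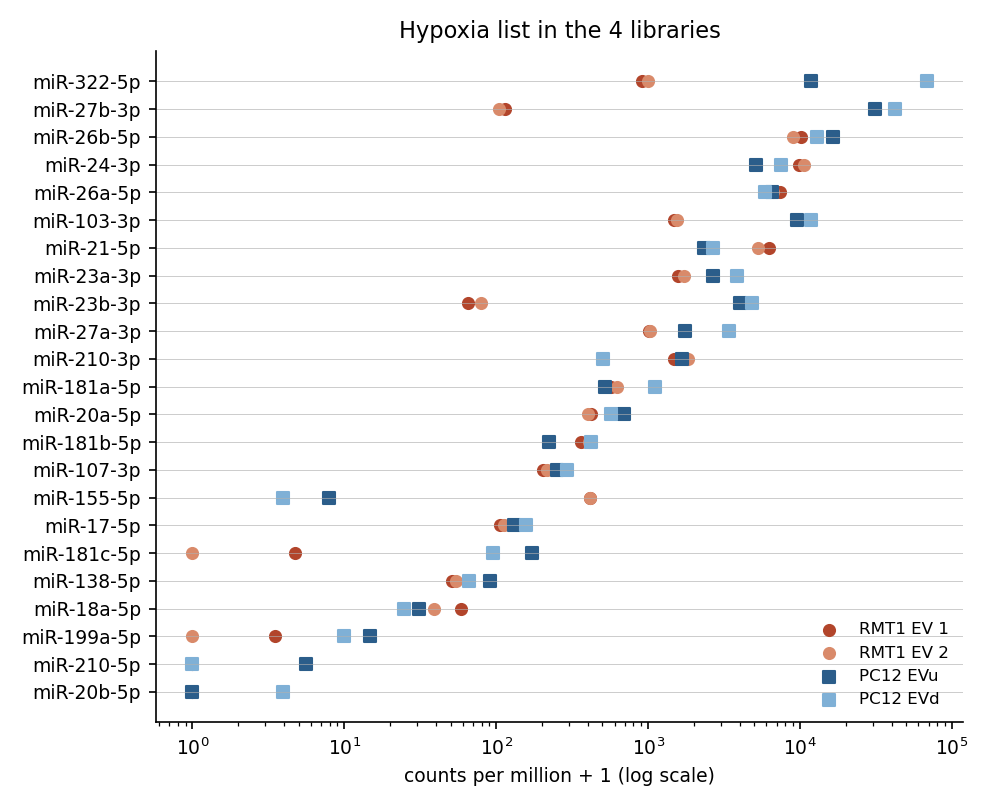
CPM plus 1 (log scale) of the 23 names of the hypoxia list in the 4 libraries, from the table of all 4; circles are RMT1 and squares PC12. miR-210-3p has 3 libraries between 1485 and 1834 CPM and EVd apart at 506 CPM, whereas miR-322-5p, miR-27b-3p and miR-23b-3p separate RMT1 from both PC12 libraries.

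The microRNAs most like miR-210-3p across the 4 libraries were sought by the root mean square difference of log2 CPM centred on each name's mean, among 249 other names with a mean of at least 10 counts. The 6 nearest were miR-1306-5p (0.22), miR-106b-5p (0.25), miR-146a-5p (0.28), miR-500-3p (0.29), miR-877 (0.36) and let-7i-5p (0.40), against a median of 2.26. Of these let-7i-5p was the abundant one, with 52990 and 46717 RMT1 counts beside 24459 in EVu and 11542 in EVd. miR-1306-5p had 43, 36, 31 and 6 counts in the same order, and the other 4 had at most 58 in a library, so their likeness is loosely measured. All 6 had their lowest CPM in EVd, which follows from how they were chosen.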

How the data were processed

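Small RNA of vesicles from PC12 and RMT1 cells was sequenced after QIAzol and miRNeasy extraction and QIAseq library preparation, per the labels' protocols. Per the file headers, the PC12 table holds the authors' raw counts for 594 names (66 are piRNAs) with log2 normalized values and log2 fold changes beside them. The other table holds log2 values that the authors normalized over all 4 libraries, for 762 names. The submitters' processing notes name the mouse build mm10. For the aligner, the counter and the scaling, names were not given in the sources used here. Whether a count is a read or a molecule is also not stated.

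On the linear scale 100% of the nonzero values of the second table came out whole, with a tolerance of 0.1, when divided by the smallest step of their library, and the quotients served as recovered counts. Shares have exact Clopper-Pearson intervals, and ratios of shares exact conditional binomial intervals. limma 3.58.1 with a trend was fitted to log2 values with a linear mean of at least 10, with 3 groups, Benjamini-Hochberg adjustment and a threshold of 0.05. It added 0.547 prior degrees of freedom. edgeR 4.0.16 and DESeq2 1.42.0 were run on recovered counts as alternatives. The limma code was tested on simulated counts under TMM scaling, with the pass mark set on the estimated differences and not on p-values. With 3 groups, p-values rest on the spread within the RMT1 pair, which may be technical. Only with EVu and EVd as 1 group does the spread between EVu and EVd enter too.

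The members and lists were chosen with earlier results of these data known. Named were miR-210, miR-3574, the hypoxia list, the blood and liver and cell type markers, the 2 names next in rank on either side, and the 6 nearest profiles. The minimum of 500 counts, miR-147, and the names that fell below miR-210-3p were chosen after values were seen.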

Additional observations from a re-analysis of the deposited data

How the results depend on the processing

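For miR-210-3p, the ratio of EVd over EVu kept its direction and lay between -1.76 and -1.72 under 7 alternatives (the other table, the authors' values, TMM, DESeq2 size factors, pseudocounts of 0.5 and 5 CPM, microRNA names alone), all inside its counting interval. With let-7 left out of the totals its share was 0.531% in RMT1, 0.218% in EVu and 0.0644% in EVd, and leaving out either RMT1 library gave 0.149% to 0.183%. Its rank in the PC12 table was 73 in EVu and 127 in EVd. Its difference between RMT1 and PC12 missed the threshold by library totals (0.84), with no filter on low values (2.33, limma adjusted p = 0.0552) and without EVd (1.49). Leaving out 1 library at a time gave 1.49 to 3.17. Chosen after seeing the data, library totals gave 1.70 without EVu, 2.15 without let-7 and -0.026 (-1.18 to 1.13) without EVd. That last value is no clear difference and was the 1 change of sign. The cause was not tested. Without an RMT1 library no residual degrees of freedom remain, so those are values with no test. TMM, DESeq2 (adjusted p = 1.27e-12), a minimum mean of 100 and EVu and EVd as 1 group kept the call.

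The number of names compared changed with the setting. Names at least 2-fold higher in EVd went from 65 of 472 (13.8%) to 26 of 246 (10.6%) in the other table. At a minimum mean of 100 they were 24 of 176. Names at least 2-fold lower went from 33 of 472 (6.99%) to 32 of 246 (13%) in the other table. They were 54 at a minimum of 1 and 13 of 176 at 100. Those called lower in RMT1 went from 103 to 192 with no filter, and without EVu or EVd the calls were 82 to 85 higher and 89 to 90 lower. With no filter 440 names were tested, against 278 in the main fit. In the hypoxia list, 3 higher and 8 lower of the 20 tested were called by library totals. No paired analysis was possible because PC12 EVu and EVd have 1 library each and share no second replicate number with RMT1. Arms with 15 counts or fewer are limited by depth.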

Other observations

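The miR-210 locus is 1 of 26 in the PC12 table where microRNA names on opposite strands overlap by at least 10 bases. In 25 pairs the name with fewer counts is also listed in the table of all 4 libraries, and in 22 of these it has 0 counts there in every library, as miR-3574 does. Examples are miR-3596a opposite let-7a-5p, with 2569 counts over EVu and EVd in the PC12 table but 0 elsewhere, and miR-3588 opposite miR-125b-5p, with 2308 and 0. An exception is miR-3065-5p opposite miR-338-3p, with 203 counts over EVu and EVd in the PC12 table and 82 over all 4 libraries in the other. In 16 pairs with at least 100 counts in both PC12 libraries, the smaller name held 0.625% to 33.7% of the pair in EVu and 0.285% to 26.4% in EVd. Its part was lower in EVd in 14 of the 16 and higher in 2, of which 1 is the pair of miR-218b and miR-218a-5p, at 6.39% and 11%. The ratio of the parts in EVu and EVd had a median of 1.28, and the pair of miR-210-3p and miR-3574 had the highest, at 2.39. That ratio rests on 12 counts of miR-3574 in EVd, 5.77% of the pair (3.02% to 9.86%), so its place is uncertain. These values were looked up after the counts of miR-3574 had been seen, and no test was made with 1 library per group.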
